A study of Mus musculus with 21 samples.

Results

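The genes described here encode the proteases that cut the extracellular matrix and cell-surface proteins, together with their tissue inhibitors. They were taken as every gene whose symbol is Adam, Adamts or Adamtsl followed by a number, Mmp followed by a number and an optional letter, Timp followed by 1 digit, or Fap. Of the 12404 genes listed in any of the 3 deposited tables, 44 met this rule: 10 ADAM, 13 ADAMTS, 4 ADAMTSL, 13 MMP and 3 TIMP genes and Fap. The table of reprogramming cells with vitamin C held 39 of them, that of reprogramming cells without it 31 and that of fibroblasts 37. A set of 29 was listed in all 3. The GENCODE M21 annotation names 79 genes that fit the rule, and the 35 that stood in no table were not analysed here.

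The study measured RNA of mouse embryonic fibroblasts (MEFs) from ICR embryos of day 13.5, at passage 2, all infected with retroviruses for 48 hours. SKOM cells were such fibroblasts given Sox2, Klf4, Oct4 and c-Myc, the factors that reprogram fibroblasts towards pluripotency, and harvested at day 5 in medium with vitamin C (Vc+) or without it (Vc-). Tet1CD denotes a construct of Tet1, an enzyme that oxidises 5-methylcytosine in DNA. Dnmt1 is the maintenance DNA methyltransferase, shDnmt1 a hairpin against it and shp53 a hairpin against Trp53, the gene of the p53 tumour suppressor. In each medium 3 SKOM libraries carried Tet1CD (alone, with Dnmt1, and with shDnmt1) and 4 did not (Dnmt1, shDnmt1, shp53 with shDnmt1, and a control with Flag and shLuc, a hairpin against luciferase). The fibroblasts carried Tet1CD, Dnmt1, shDnmt1, shp53, shp53 with shDnmt1, or the same control pair. A further library, labelled 5C with the control constructs and filed with the fibroblasts, has day 4 in its column header. What 5C stands for is not explained in the labels, and no day is given for the fibroblasts. Each of the 21 libraries was the only one of its combination. Nothing in the labels states that they came from separate cultures, so a p-value here speaks only of the scatter among these libraries, which may be technical.

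Matrix metalloproteinases (MMPs) are zinc enzymes that cleave collagens, proteoglycans and other matrix proteins, and most are secreted as inactive precursors. ADAM proteins are membrane-anchored relatives that release growth factors and receptors from the cell surface, and ADAMTS proteins are secreted relatives that process procollagens and cut large proteoglycans. TIMPs bind the active site of these enzymes and block it. Not every listed gene encodes a protease: Adam22 and Adam23 are known to lack a working catalytic site, and the ADAMTSL proteins lack the protease domain. Fap, a serine protease of the cell surface, is often used as a marker of activated fibroblasts.

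The deposited values are whole numbers that had been normalised within each table, so the depth behind them is unknown and no counting error could be given. Whether they are scaled to gene length is not given in the sources used here, so they are compared only within a gene. The fibroblast markers were listed in all libraries of the MEF table (10 of 10), and of 8 pluripotency markers 1 was listed in the Vc+ table and 0 in the others. Tet1 ranged from 2503 to 3129 in Vc+ libraries with Tet1CD and from 41 to 88 in those without. In Vc- libraries it ranged from 2140 to 2632 with Tet1CD and from 11 to 19 without. Dnmt1 was 208 in shDnmt1 MEFs against 957 in control MEFs, while the MEF library labelled Dnmt1 held 975. In the annotation 11 of the 44 genes share exonic bases with a gene on the opposite strand. The largest shares were those of Mmp19 (28.3% of its exonic bases, with Tmem198b and Gm47093 together), Timp3 (21.3%, with Syn3) and Adam15 (20.6%). Strand use is not given in the sources used here, so reads of such pairs cannot be told apart. Syn3 was in none of the tables, whereas Tmem198b was listed in the deposited data.

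Tet1CD went with higher RNA of most of these genes in SKOM cells. Over the 14 SKOM libraries, in a limma model with terms for medium and each construct, 20 of the 31 genes in both SKOM tables rose and 2 fell at an adjusted p under 0.05. Among all 10711 genes tested, 20.3% rose and 24.9% fell, 45.2% in all. To be listed, a gene needed 32 or more in 2 of the 7 libraries, judged from the tables. A gene that reached 32 in fewer than 2 libraries of one group was thus listed through the other group, where it had to be high. This was so for Adamts2, Adamts3, Adamtsl3 and Mmp12 of the 31, in 1 or both tables, and no test is given for such genes below. Among the 27 others, in a fit of the 10120 genes listed through either group, which was chosen after the data had been seen, 17 rose and 2 fell, where 20.3% of all such genes rose and 25.0% fell. Their median log2 fold change was 0.36, against -0.04 over all such genes. All 3 TIMP genes rose, as did 5 of 8 ADAM, 3 of 6 ADAMTS, 2 of 3 ADAMTSL and 4 of 6 MMP genes of the 27, whereas the ADAMTS genes also included both that fell. Without the 4 libraries labelled Dnmt1, likewise chosen after the data had been seen, 10 of the 31 genes passed, and 1793 instead of 4842 of all genes. Adamts2 was among these 10, with Adam10, Adam19, Adam23, Adamts5, Adamts7, Adamtsl5, Mmp14, Timp1 and Timp2. The calls of the other genes were lost in that smaller fit. In the lists of values that follow, libraries with Tet1CD stand in the order alone, with Dnmt1, with shDnmt1, and those without it in the order control, Dnmt1, shDnmt1, shp53 with shDnmt1.

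All 3 tissue inhibitors rose over both media. Timp1, which inhibits most MMPs, had values of 4151, 4293 and 5370 in Vc+ libraries with Tet1CD, against 2256, 1970, 2196 and 1522 in those without. In Vc- medium Timp1 held 2635, 2875 and 3018 with Tet1CD, against 2145, 1997, 2145 and 1454 without. The groups did not overlap in either medium, and the log2 fold change over both was 0.77 ± 0.12 (SE; adjusted p = 0.000582, limma). Timp2, which also takes part in activating the precursor of MMP2, had 4584, 4436 and 3888 with Tet1CD in Vc+ medium, against 2769, 2317, 2501 and 1782 without it. In Vc- medium the Timp2 values were 2446, 2868 and 3008 with Tet1CD and 2297, 2041, 2234 and 1820 without. Timp2 rose by 0.55 ± 0.11 on the log2 scale (adjusted p = 0.00197).

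Timp3, which stays bound to the matrix and inhibits ADAM17 and aggrecan-cutting ADAMTS enzymes besides MMPs, rose with Tet1CD in Vc+ cells and did not pass in Vc- cells. In Vc+ medium it had 8009, 7089 and 7551 with Tet1CD, against 4151, 3083, 3524 and 1664 without. In Vc- medium it had 4629, 4829 and 4629 with Tet1CD, against 4829, 4430, 4629 and 2552 without, so that the shp53 library was the only one apart. High values in these tables are shared by several libraries, as the repeated 4629 shows. Fitted within each table, the log2 fold change of Timp3 was 1.08 ± 0.09 in Vc+ cells (adjusted p = 0.000637) and 0.02 ± 0.05 in Vc- cells (adjusted p = 0.827). The difference between media was 1.06 ± 0.11 (adjusted p = 0.000669). Over both media together its call (0.55 ± 0.18, adjusted p = 0.0283) was lost on leaving out any Vc+ library but the shp53 one, with adjusted p up to 0.0786.

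**Figure D1:**
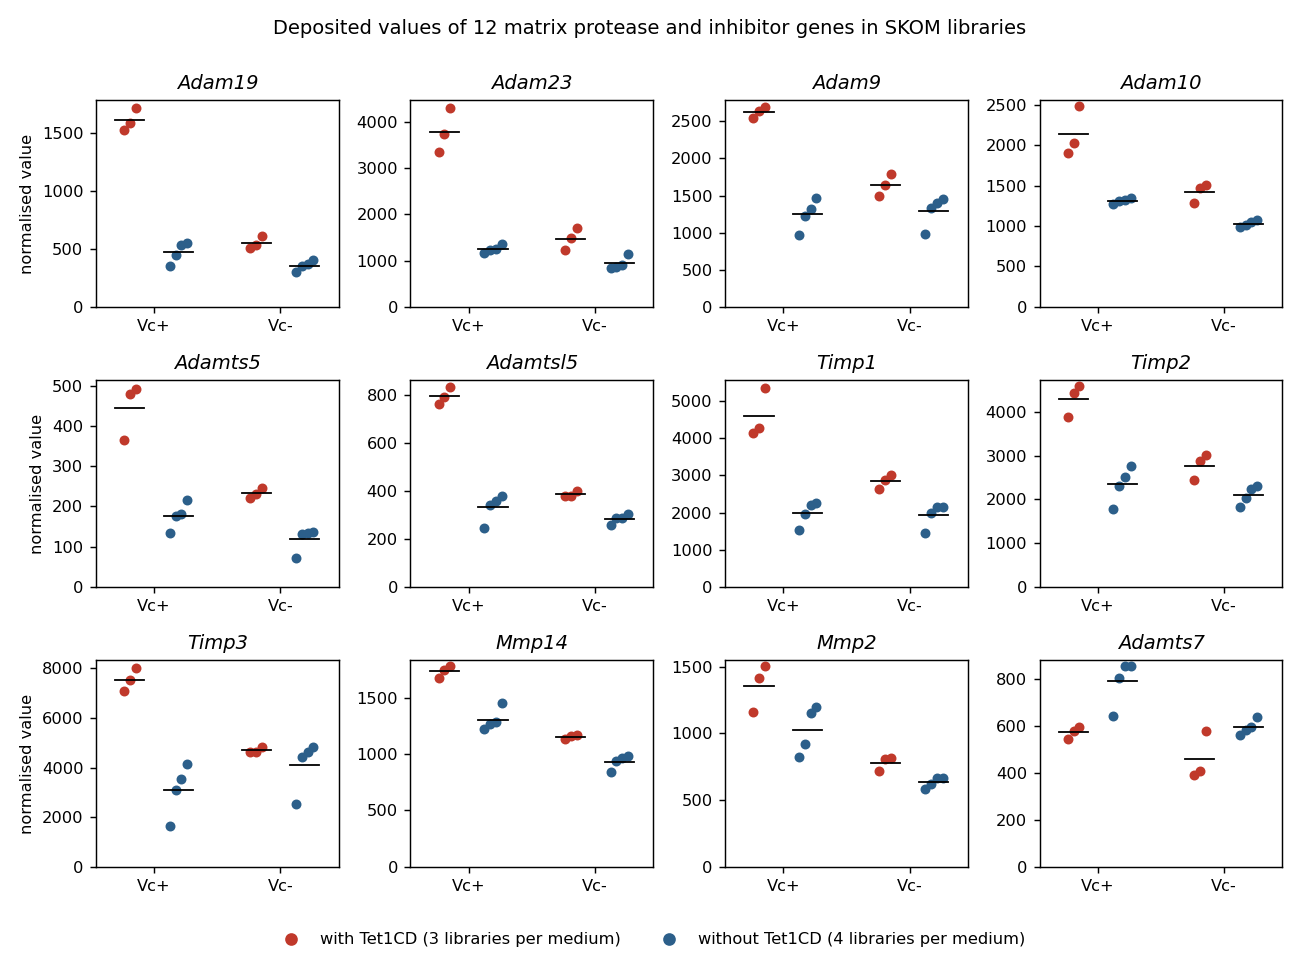
Deposited normalised values of 12 genes (vertical axes from 0) in SKOM libraries with Tet1CD (red, 3 per medium) and without it (blue, 4 per medium), in Vc+ (left) and Vc- (right) medium; each point is 1 library and each line the mean. In Vc+ medium Adam19 lies between 1533 and 1715 with Tet1CD and between 356 and 551 without; Timp3 separates only there, and Adamts7 is lower with Tet1CD.

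Among the ADAM genes, the largest rises over both media were those of Adam19 and Adam23. Adam19, a sheddase of neuregulins, had 1715, 1533 and 1590 in Vc+ libraries with Tet1CD, against 537, 449, 551 and 356 without. In Vc- medium Adam19 had 532, 509 and 609 with Tet1CD, against 372, 352, 401 and 299 without. Its log2 fold change was 1.10 ± 0.19 (adjusted p = 0.000934), with no overlap of the groups in either medium. Adam23, an adhesion protein best known from neurons, had 3733, 3354 and 4299 with Tet1CD in Vc+ medium, against 1221, 1242, 1370 and 1167 without it. In Vc- medium it had 1496, 1227 and 1696 with Tet1CD, against 871, 908, 1146 and 847 without. It rose by 1.08 ± 0.16 on the log2 scale (adjusted p = 0.000457), again without overlap.

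Adam9, Adam10 and Adam12 rose as well, with smaller estimates. Adam10, the main sheddase of Notch receptors and of many adhesion proteins, had 2483, 2026 and 1910 with Tet1CD in Vc+ medium, against 1326, 1268, 1313 and 1343 without. In Vc- medium its values were 1282, 1471 and 1513 with Tet1CD and 988, 1044, 1071 and 1007 without, and the log2 fold change over both was 0.58 ± 0.08 (adjusted p = 0.000371). Adam9, a widely expressed sheddase, rose by 0.60 ± 0.13 and Adam12, an ADAM of muscle and mesenchyme, by 0.57 ± 0.18 (adjusted p = 0.025). The Adam12 call was lost on leaving out the Vc- library labelled Dnmt1 or any Vc+ library but the shp53 one, with adjusted p up to 0.0688. Adam17, which releases tumour necrosis factor and ligands of the epidermal growth factor receptor, had a log2 fold change of 0.04 ± 0.09 (adjusted p = 0.765). Adam15 (0.13 ± 0.08) and Adam22 (-0.21 ± 0.10) did not pass the threshold either. Adam28, a lymphocyte ADAM that was listed in the Vc+ table only, had 96, 70 and 39 with Tet1CD, against 0, 6, 11 and 22 without. It reached 32 in libraries with Tet1CD only, so its listing depended on them and no test is given.

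The ADAMTS genes split in direction. Adamts5, the major aggrecan-cutting enzyme of mouse cartilage, had 493, 479 and 366 with Tet1CD in Vc+ medium, against 215, 177, 181 and 134 without. In Vc- medium Adamts5 had 245, 221 and 231 with Tet1CD, against 136, 132, 135 and 72 without. Its log2 fold change of 0.98 ± 0.09 had the smallest adjusted p of the 31 genes (7.27e-05). Adamts12 rose by 0.38 ± 0.10 and Adamts6 by 0.23 ± 0.06. Adamts2, which trims the ends of procollagens, had 103, 72 and 71 with Tet1CD in Vc+ medium, against 38, 34, 32 and 29 without, and was listed in the Vc- table through the libraries with Tet1CD. Adamts7, a protease that degrades cartilage oligomeric matrix protein, had 580, 597 and 544 with Tet1CD in Vc+ medium, against 856, 806, 857 and 643 without. In Vc- medium Adamts7 had 580, 408 and 393 with Tet1CD, against 585, 560, 596 and 639 without, and the groups overlapped there. Adamts7 fell by 0.45 on the log2 scale (SE 0.09, adjusted p = 0.00276). Adamts10, a fibrillin-binding member, had a log2 fold change of -0.29 ± 0.11 (adjusted p = 0.0465), and its call was lost in 10 of the 14 fits that left out 1 library, with adjusted p up to 0.12.

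A further set of ADAMTS genes was listed in Vc+ cells only, and 3 of them were listed through the libraries without Tet1CD, so that their values are given with no test. Adamts19 had 8, 2 and 2 with Tet1CD, against 27, 35, 30 and 36 without. Adamts17 had 13, 11 and 13 with Tet1CD, against 26, 32, 33 and 30 without. Adamts20, known for the belted coat pattern of mice that lack it, had 22, 21 and 25 with Tet1CD, against 51, 54, 42 and 73 without. All of these values were low.

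Of the ADAMTSL genes, whose products bind fibrillin and other microfibril proteins, Adamtsl5 rose most, by 0.79 ± 0.15 on the log2 scale (adjusted p = 0.00159). Its values were 832, 761 and 791 with Tet1CD in Vc+ medium, against 377, 341, 359 and 246 without it. Those in Vc- medium were 377, 378 and 400 with Tet1CD and 285, 257, 303 and 285 without, with no overlap in either medium. Adamtsl4 rose by 0.36 ± 0.10, and Adamtsl1 had 0.08 ± 0.10 (adjusted p = 0.534). Adamtsl3 had 46, 39 and 43 with Tet1CD in Vc+ medium, against 36, 24, 25 and 13 without, and was listed in both tables through the libraries with Tet1CD.

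Of the 6 MMP genes listed through either group in both SKOM media, 4 rose. Mmp14, the membrane-anchored collagenase that activates the precursor of MMP2, had 1748, 1784 and 1676 with Tet1CD in Vc+ medium, against 1452, 1282, 1262 and 1218 without. In Vc- medium it had 1133, 1172 and 1156 with Tet1CD and 985, 844, 940 and 961 without, a log2 fold change over both media of 0.35 ± 0.06 (adjusted p = 0.001). Mmp2, gelatinase A, rose by 0.32 ± 0.09 and Mmp11, stromelysin-3, by 0.42 ± 0.09. Mmp28 rose by 0.45 ± 0.09. Without the 4 libraries labelled Dnmt1, the calls of Mmp2, Mmp11 and Mmp28 were lost, and that of Mmp14 was kept. Mmp12, the elastase of macrophages, had 94, 73 and 86 with Tet1CD in Vc+ medium, against 76, 48, 20 and 94 without, and was listed in the Vc- table through the libraries with Tet1CD. Mmp13, an interstitial collagenase, had 0.23 ± 0.11 (adjusted p = 0.121) and Mmp16, a membrane-anchored MMP, 0.02 ± 0.08 (adjusted p = 0.845). In the Vc+ table, the only SKOM table to list them, Mmp23 had 72, 73 and 79 with Tet1CD, against 43, 24, 22 and 23 without. Mmp19 ranged from 57 to 70 with Tet1CD and from 20 to 43 without. These genes, with Mmp10 and Mmp15, were listed there through the libraries with Tet1CD, so no test is given. Fap had 0.34 ± 0.51 over both media (adjusted p = 0.605).

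The Tet1CD effect was larger in Vc+ than in Vc- cells for 8 of the 31 genes and smaller for 0, at an adjusted p under 0.05 for the interaction in limma. Of all 10711 genes, 8.57% had a positive and 8.28% a negative interaction. Adam19 had log2 fold changes of 1.65 ± 0.09 in Vc+ and 0.54 ± 0.06 in Vc- cells, a difference of 1.10 ± 0.11 (adjusted p = 0.000562). Adam23 had 1.56 ± 0.09 in Vc+ and 0.59 ± 0.08 in Vc- cells, a difference of 0.97 ± 0.12. Besides Timp3, described above, the others were Adam12 (difference 0.82 ± 0.19), Adam9 (0.74 ± 0.13), Adamtsl5 (0.69 ± 0.11), Timp1 (0.66 ± 0.13) and Adamtsl4 (0.43 ± 0.11). The difference for Mmp2 was 0.00 ± 0.12 and that for Mmp14 was 0.06 ± 0.11, so no larger effect of either could be shown in Vc+ cells. The calls of Adamtsl4 and Adam12 were lost in 8 and 6 of the 14 fits without 1 library (adjusted p up to 0.104 and 0.0672), and that of Timp1 without the Vc- Tet1CD library (adjusted p = 0.0501). Without that Vc- Tet1CD library 5 of the 31 genes kept a call. Across the 14 fits without 1 library, 5 to 11 of the 31 genes and 761 to 2315 of all genes passed. The full fit had 8 and 1805. Medium and table cannot be told apart, since each table was normalised by itself.

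Within each table, 11 of 31 genes rose in Vc- cells and 0 fell, where 7.25% of all genes rose and 7.38% fell. In Vc+ cells 20 of 39 rose and 6 fell, where 20.7% of all genes rose and 23.6% fell. The listing of 10 of the 39 in Vc+ cells and 3 of the 31 in Vc- cells depended on 1 group. Of the others, 17 of 29 rose and 3 fell in Vc+ cells, where 20% of such genes rose and 23.4% fell, and 11 of 28 rose and 0 fell in Vc- cells, where 7.51% rose and 7.73% fell. Those that fell in Vc+ cells were Adam22 (-0.39 ± 0.11), Adamts7 and Adamts10. These fits had 2 residual degrees of freedom. The Vc- count was 0 on leaving out any of the libraries labelled Dnmt1, Tet1CD with Dnmt1, shDnmt1, or Tet1CD with shDnmt1, and of all genes 5, 5, 73 and 55 then passed in place of 1568. The Vc+ count of 26 was 13 without the library labelled Dnmt1 and 14 without that of Tet1CD with Dnmt1, with 2235 and 2231 of all genes in place of 5319. The 26 include Adam28, Mmp19, Mmp23, Adamts17, Adamts19 and Adamts20, whose listing depended on 1 group. Without a model, the libraries with Tet1CD lay wholly above those without it for 20 of the 29 genes in Vc+ cells and for 15 of the 28 in Vc- cells, where 24.3% and 15.2% of all such genes did so. They lay wholly below for 3 of 29 in Vc+ cells and 0 of 28 in Vc- cells, against 31.1% and 15.8%.

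**Figure D2:**
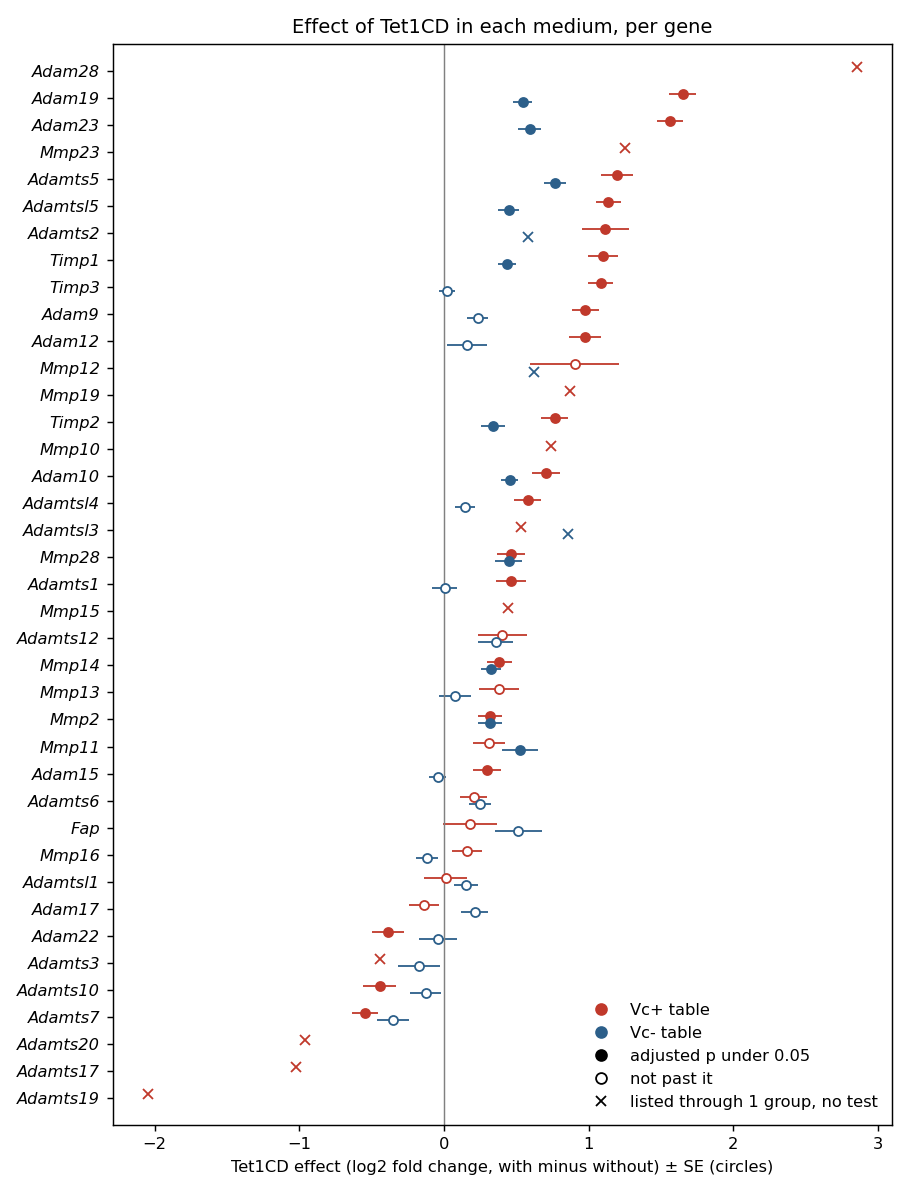
Log2 fold change with minus without Tet1CD, with its standard error, fitted separately in the Vc+ table (red, 39 genes) and the Vc- table (blue, 31 genes); filled points have an adjusted p under 0.05, and crosses mark genes whose listing depended on 1 group, which have no test. Adam19, Adam23 and Timp3 lie further right in Vc+ cells (1.65, 1.56 and 1.08) than in Vc- cells (0.54, 0.59 and 0.02), while Mmp2 and Mmp14 have nearly the same value in each medium.

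Since Tet1 oxidises methylcytosine mostly in CG dinucleotides, the CG content of the promoters was described from RefSeq sequence of the 250 bases before each start (build GRCm38.p6). Of the 44 genes 30 had an entry, 28 of them with a start within 200 bases of the deposited one. At least 10 CG were found in 22 of the 30 (73.3%), against 37.8% of all 32851 promoters. Those were not limited to listed genes, nor to a single promoter per gene, so the sets are unlike and no trait of these genes is read from the shares. The 15 matched genes that rose over both media held 0 to 39 CG with a median of 17, and the 6 matched genes not past the threshold held 1 to 35 with a median of 17.5. These groups include genes whose listing depended on 1 group, Adamts2 and Mmp12 among those that rose and Adamts3 among the others. The medians are therefore given without a comparison. The promoters of the 3 genes with the largest differences between media are printed 5′ to 3′ with each CG in capitals, since they hold 7, 27 and 18 of them.
Adam19 (chr11:46055734-46055983, + strand, 7 CG): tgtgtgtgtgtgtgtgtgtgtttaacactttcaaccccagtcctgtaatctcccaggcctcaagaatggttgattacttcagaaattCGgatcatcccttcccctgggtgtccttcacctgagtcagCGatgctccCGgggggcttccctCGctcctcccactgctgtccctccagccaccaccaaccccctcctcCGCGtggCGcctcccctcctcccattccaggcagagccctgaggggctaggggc
Adam23 (chr1:63445641-63445890, + strand, 27 CG): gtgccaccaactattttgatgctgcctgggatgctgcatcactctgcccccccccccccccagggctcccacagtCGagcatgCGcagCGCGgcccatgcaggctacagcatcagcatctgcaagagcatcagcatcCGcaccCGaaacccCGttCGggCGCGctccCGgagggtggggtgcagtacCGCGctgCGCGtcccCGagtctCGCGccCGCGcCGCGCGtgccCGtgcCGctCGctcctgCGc
Timp3 (chr10:86300162-86300411, + strand, 18 CG): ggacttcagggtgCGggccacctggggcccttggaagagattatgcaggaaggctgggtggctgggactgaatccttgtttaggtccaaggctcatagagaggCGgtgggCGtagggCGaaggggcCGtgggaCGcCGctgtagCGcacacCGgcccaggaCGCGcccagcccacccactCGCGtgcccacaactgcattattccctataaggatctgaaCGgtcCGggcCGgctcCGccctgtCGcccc
In all 3 sequences most CG lie in the part nearer to the start. DNA methylation was not measured in the files used here.

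Other genes of the proteolytic system were read from lists chosen with earlier results of these data known. Of 6 tested genes of the plasminogen system, which activates MMP precursors and degrades fibrin, 5 rose with Tet1CD over the 14 libraries and 0 fell. They included the urokinase gene Plau (0.82 ± 0.17), its receptor Plaur (0.75 ± 0.16) and Plat (0.61 ± 0.11). Of 13 other matrix proteases 10 rose and 0 fell, among them Htra1 (1.60 ± 0.17), Ctsk, the collagen-cutting cathepsin of osteoclasts (1.33 ± 0.20), and Ctsl (0.97 ± 0.10). Htra3 and another gene of this list were listed in Vc- cells through the libraries with Tet1CD, so the listing may have raised this count. Of 10 further inhibitors and regulators 5 rose and 0 fell, led by Lrp1, the endocytic receptor that clears proteases (1.03 ± 0.08), with Reck, a membrane-bound MMP inhibitor, at 0.37 ± 0.08. Of 12 activators and ADAM partners 6 rose and 1 fell, with Rhbdf2, needed for ADAM17 to mature, at 0.48 ± 0.15 and Tspan14, which escorts ADAM10, at -0.34 ± 0.09. Of 13 ligands and receptors that ADAMs release 8 rose and 0 fell, with Ereg at 1.43 ± 0.23, Cxcl16 at 0.89 ± 0.17 and Hbegf at 0.80 ± 0.17. Of 10 ADAMTS substrates 7 rose and 1 fell, with Ltbp2 at 0.95 ± 0.18 and Fbn2 at -0.86 ± 0.18. Thbs1 stood at the highest value of its table (28926 in Vc+ and 19681 in Vc- cells) in all 6 libraries with Tet1CD, so no fold is given for it. The genes given with a fold change carried an adjusted p under 0.05 over all genes, and the lists' shares stand beside the 20.3% and 24.9% of all genes given above.

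Markers of other cell types moved with Tet1CD as well. Of 13 macrophage and leukocyte markers 6 were listed in Vc+ cells, and their summed value was 2474 to 3309 with Tet1CD, against 338 to 509 without. In Vc- cells 4 were listed, summing to 633 to 735 with Tet1CD and 302 to 400 without. Ptprc, Lyz2 and Cd53 in Vc+ cells, and Ptprc in Vc- cells, were listed through the libraries with Tet1CD. The difference between these sums thus follows in part from the listing. Ptprc or Cd53 was at 0 in some libraries without Tet1CD. Of those tested in both media, Laptm5 (1.90 ± 0.31), Itgam (1.64 ± 0.27) and Cd68 (1.64 ± 0.32) rose, and Ptprc was listed through the libraries with Tet1CD. The fibroblast markers summed to 40289 to 46308 in Vc+ libraries with Tet1CD and 27356 to 45466 without, and 5 of 9 tested rose. Their sums in Vc- libraries were 33815 to 34939 with Tet1CD and 29994 to 33575 without. Vim stood at the highest value, 19681, in all 7 Vc- libraries. It thus adds the same amount to each Vc- sum and cannot show a change there. In Vc+ cells Vim stood at the highest value in 2 libraries without Tet1CD. Lum was listed in Vc- cells through the libraries without Tet1CD, and Pdgfra in Vc+ cells through those with it. Of 4 epithelial markers 3 fell, of which Cldn3 was listed through the libraries without Tet1CD. Of 2 endothelial markers Emcn rose (0.59 ± 0.13) and Tek fell (-0.31 ± 0.10), and of 3 chondrocyte and osteoblast markers the 1 past the threshold, Alpl, was lower with Tet1CD and was listed in Vc+ cells through the libraries without it. The part of these in the protease genes was not tested, and in bulk RNA more cells of a type and more RNA per cell cannot be told apart. Of the genes described here, Mmp12 is known from macrophages and Adam28 from lymphocytes.

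None of these genes passed for the Dnmt1 constructs in SKOM cells. For shDnmt1, 0 of 31 passed in limma over the 14 libraries and 0 had an unadjusted p under 0.05, where 2 of all genes (0.0187%) passed and 383 had an unadjusted p under 0.05. The largest log2 fold change was that of Mmp12 (-0.50 ± 0.24). The libraries labelled Dnmt1 likewise gave 0 calls among the 31 and 0 among all genes, with 84 of all genes and 0 of the 31 at an unadjusted p under 0.05. Dnmt1 RNA was 1001 in the Dnmt1 library and 984 in the control in Vc- medium, and 2381 and 2346 in Vc+ medium. With Tet1CD it was 778 with Dnmt1 and 967 without in Vc- medium, and 1224 and 1080 in Vc+ medium. No clear rise of Dnmt1 RNA was seen, so an effect of raised Dnmt1 was not tested. Dnmt1 RNA was 527 with shDnmt1 and 984 in the control in Vc- medium, and 1154 and 2346 in Vc+ medium. In MEFs, where it was 208 against 957, 1 gene was higher in both shDnmt1 pairs by at least 1.5-fold (0.339% of all genes) and 1 lower (0.534%). Adamts2 had 121 and 96 with shDnmt1, against 72 and 51 in the counterparts, and Adamtsl3 had 93 and 76, against 147 and 122. These pairs had no test, and Adamtsl3 no longer met the rule with a pseudocount of 20.

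The p53 hairpin went with lower values of Timp2, Timp3 and several proteases in MEFs. There 9 of 32 genes were lower by at least 1.5-fold in both disjoint pairs of libraries (shp53 over control, and shp53 with shDnmt1 over shDnmt1) and 0 were higher. Of all 9730 genes 5.99% were lower and 5.86% higher by the same rule, which involves no test. Timp3 had 1791 and 1959 with shp53, against 4139 and 5203 in the counterparts. Timp2 had 5619 and 8040 with shp53, against 10832 and 12468. Adamts12, which cleaves cartilage oligomeric matrix protein, had 124 and 111 with shp53, against 307 and 285. Adamtsl4 had 74 and 100, against 211 and 251, and had the lowest median log2 ratio, -1.37. The others were Mmp19 (-1.35), Mmp23 (-1.05), Adam19 (-0.80), Adam15 (-0.78) and Mmp2 (-0.74), and Timp1, with 3839 and 3998 against 5380 and 6140, did not meet the rule. Trp53 was 157 and 186 with shp53, against 1008 and 966 in the counterparts. The macrophage markers summed to 640 and 193 in the shp53 libraries, against 328 and 1204 in their counterparts, higher in 1 pair and lower in the other. The fibroblast markers summed to 53170 and 66662 with shp53, against 85856 and 93759, with 2 of 10 lower by the same rule and 0 higher, and 5 of 10 ADAMTS substrates were lower. Their part in the protease values was not tested.

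In SKOM cells only 1 library per medium carried shp53, together with shDnmt1, and Trp53 there was 453 in Vc- and 621 in Vc+ medium, against 873 and 1194 in the controls. Tests of shp53 therefore assume that this library varies like the others, and within 1 table they rest on that single library. Over the 14 libraries 0 of 31 genes passed in limma, where 1 of all genes (0.00934%) did, while 10 of the 31 and 10.5% of all genes had an unadjusted p under 0.05. Once the model also held a medium by Tet1CD term, 7 of the 31 and 453 of all genes passed, and all 7 were lower with shp53. Under that model the values were -0.97 ± 0.10 for Timp3 (adjusted p = 0.000619), -0.60 ± 0.09 for Timp1, -0.59 ± 0.12 for Adamts5 and -0.51 ± 0.10 for Adamtsl4. Adam19 (-0.50 ± 0.09), Adam9 (-0.45 ± 0.09) and Adam23 (-0.35 ± 0.09, adjusted p = 0.0469) completed them. Without the added term Timp3 had the same estimate with a standard error of 0.29 (adjusted p = 0.367). Its value was 1664 with shp53 in Vc+ medium, where the other libraries ranged from 3083 to 8009, and 2552 in Vc- medium, where they ranged from 4430 to 4829. In the Vc- table alone the 1 shp53 library stood at -0.85 ± 0.09 for Timp3 (adjusted p = 0.033), where 0.0839% of all genes were lower and 0.0373% higher past the threshold, and this call was lost without any of 4 libraries (Dnmt1, Tet1CD with Dnmt1, shDnmt1, or Tet1CD with shDnmt1; adjusted p up to 0.382).

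The shp53 library held the lowest value of its table for 24 of 39 genes in Vc+ cells and 12 of 31 in Vc- cells. Among all genes it did so for 22.7% and 24.6%. The 6 other libraries of each table included 3 with Tet1CD, with which most of these genes were higher. Fap was listed at 0 in the Vc+ shp53 library and at 64 to 99 in the other 6, while in Vc- medium it had 67 with shp53 and 37 to 73 in the others. It was 1 of 3 genes at 0 in that library and at 50 or more in the other 6, the others being Palm2Akap2 and Smarca1. The interaction of shp53 with medium passed for Fap alone among the 31 genes (lower in Vc+, adjusted p = 0.01), where 0.0373% of all genes passed, each of them lower. Its adjusted p was up to 0.088 without the Vc- shDnmt1 or Vc- Tet1CD with shDnmt1 library. In the Vc+ table Fap was the 1 gene of 39 past the threshold, where 0.0166% of all genes were lower and 0 higher (adjusted p = 0.0421, and up to 0.129 on leaving out any other library). In MEFs Fap had 137 and 121 with shp53, against 117 and 121 in the counterparts. A listed 0 in these tables can be a failed estimate, and these p-values rest on it and on the pseudocount, so they give no measure of a fold.

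**Figure D3:**
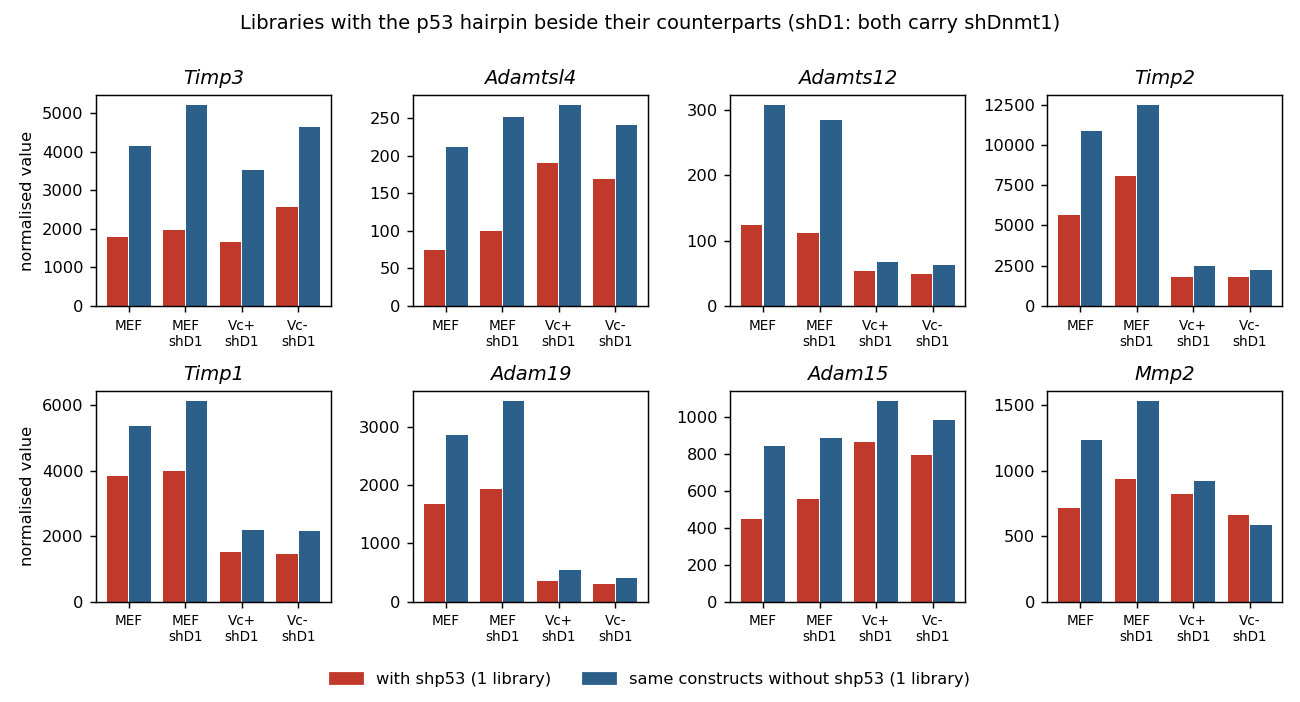
Deposited normalised values (bars, from 0) of 8 genes in libraries with shp53 (red) and in the library with the same other constructs (blue), 1 library per bar; the MEF pairs and the SKOM pairs come from 3 tables normalised separately, and shD1 marks pairs that both carry shDnmt1. Timp3 is lower with shp53 in all 4 pairs, with 1791, 1959, 1664 and 2552; Mmp2 is lower in the MEF pairs and in Vc+ but not in Vc- medium.

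Reprogramming cells differed from fibroblasts in many of these genes, and in a few of them by large factors. Values come from tables normalised separately, so each SKOM library was set over the MEF library with the same constructs, each ratio was centred on its median gene, and no test was made. In Vc+ cells 3 of 32 genes were higher and 11 lower in all 5 pairs with a median of at least 2-fold, where 6.72% of all genes were higher and 10.8% lower. In Vc- cells 3 of 29 were higher and 10 lower, where 6.02% were higher and 7.46% lower. The pairs of the media share their MEF libraries, so their values are given side by side only. Adamts7 had the highest median log2 ratios, 2.96 in Vc+ and 3.12 in Vc- cells. Its values were 544 to 857 in Vc+ and 393 to 639 in Vc- libraries, against 58 to 88 in MEFs. Adam23 had 1.81 and 1.94, and Adamtsl1 1.34 and 1.45. Adam12 had the lowest, -3.81 in Vc+ and -3.25 in Vc- cells. It had 59 to 209 in Vc+ and 63 to 111 in Vc- libraries, against 729 to 1331 in MEFs. Adam19 followed with -2.71 and -2.65, and Timp2 with -2.41 and -2.02. Timp1 had -1.68 and -1.16 and Adam9 -1.71 and -1.07. Timp3 had -0.52 in Vc+ and 0.26 in Vc- cells and met the rule in neither. By the same rule 7 of 10 fibroblast markers were lower in Vc+ and 6 of 9 in Vc- cells, with 0 higher in either, and their part in the protease ratios was not tested.

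For vitamin C itself, 0 of the 31 genes met the rule used across tables (the same direction in all 7 pairs of Vc+ over Vc- libraries and a median of at least 2-fold). Of all genes 0.392% were higher and 0.215% lower by it, with no test. Timp3 had a median log2 ratio of -0.79, yet its pairs ran from -1.18 to 0.26. At 1.5-fold, Adamts3, a procollagen-trimming enzyme, was the single gene to meet the rule (where 1.53% of all genes were lower and 1.20% higher), with a median of -0.67 and values of 24 to 48 in Vc+ libraries and 35 to 56 in Vc- libraries.

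**Figure D4:**
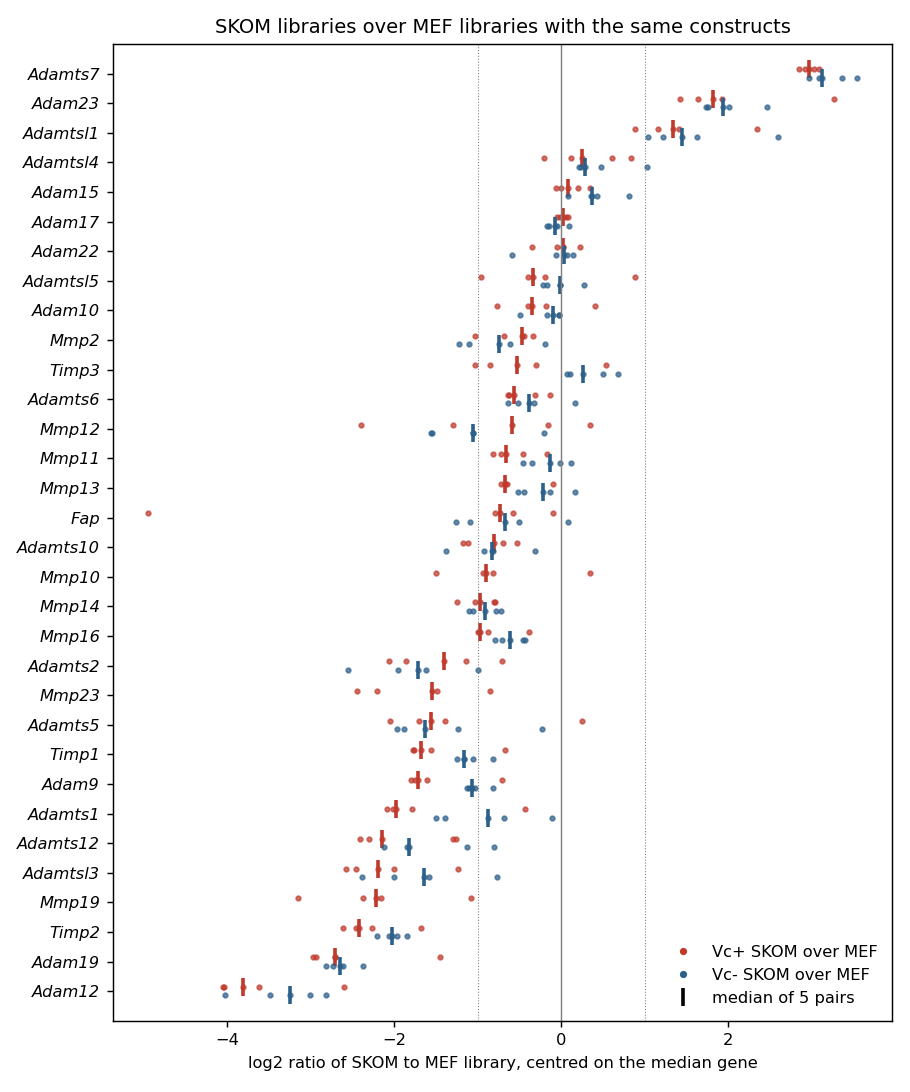
Log2 ratio of each SKOM library to the MEF library with the same constructs, centred on the median gene, for 32 genes; red points are Vc+ pairs, blue points Vc- pairs, bars their medians over 5 pairs, and dotted lines mark 2-fold. Adamts7, Adam23 and Adamtsl1 lie above 2-fold and Adam12, Adam19 and Timp2 furthest below; the lone Fap point at the left is the Vc+ shp53 library, where Fap is listed at 0.

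Tet1CD in MEFs was seen in 1 library only. Tet1 was not listed in the MEF table, where a listing needed 32 or more in 2 libraries. A high value in the Tet1CD library alone could not have listed it, so expression of the construct in MEFs cannot be judged. Set over the control, Dnmt1 and shDnmt1 libraries, 0 of 32 genes were past 2-fold in the same direction in all 3 ratios, where 0.668% of all genes were higher and 0.421% lower. Adam19 had 3991 in the Tet1CD library, against 2856, 2856 and 3448, and Mmp2 had 2053, against 1230, 1261 and 1533. Adamts1, an early response gene that cuts versican, had 483, against 1062, 1010 and 761. The 5 listed genes with a mean under 50 were left out here. With a mean of at least 10, Adamts9 (14 against 56, 60 and 58), Mmp3 (12 against 39, 47 and 43) and Adamtsl1 (22 against 55, 54 and 54) met the rule at low values, all of them lower, where 0.655% of all genes were lower and 0.924% higher. The macrophage markers summed to 1653 in the Tet1CD library, the highest of the 6 MEF libraries.

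The 5C library held the highest values of the MEF table for several MMP genes. Set over the MEF control with the same constructs, 10 of 35 genes were higher and 9 lower by at least 2-fold, where 20% of all genes were higher and 27.4% lower and the median gene stood at -0.15. With 1 library on each side there was no replicate check and no test. Mmp3, stromelysin-1, had 10854 in the 5C library, against 39 in the MEF control and 12 to 63 in all 6 MEF libraries. Mmp13 had 1988 in 5C, against 114 in the control, and Mmp12 had 1060, against 68. Mmp10, stromelysin-2, had 329, against 35. Mmp2 had 7669, against 1230, and Adamts2 had 727, against 72. Adamts9, a versican-cutting enzyme, had 382 against 56, Mmp23 had 483 against 109, Mmp19 had 663 against 168, and Fap had 309 against 117. In each of these 10 genes the 5C value was above all 6 MEF libraries.

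The genes that were lower in 5C were mostly of other families. Adamts12 had 7 in the 5C library, against 307 in the MEF control. Adam9 had 248, against 3607, Adam12 had 118, against 1216, and Adam19 had 390, against 2856. Timp3 had 950, against 4139, while Timp1 (3606 against 5380) and Timp2 (9981 against 10832) stayed within 2-fold. Adamts6, Adamtsl4, Adamts1 and Adamtsl3 were the other lower genes, with log2 ratios of -2.62, -2.17, -1.51 and -1.29. Mmp14 was nearly level, with 2109 against 2049. Mmp17, which did not reach the mean of 50, had 2 in 5C and 27 in the control.

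In the same 5C library the macrophage markers summed to 5613, against 193 to 1653 in the MEF libraries. Of 10 fibroblast markers 4 were higher in 5C than in the MEF control by at least 2-fold and 0 lower; Vim, Col1a2 and Col3a1 stood at the table's highest value, 38803, in 5C, and Col1a1 had 10838, against 15100. Among all genes, 49 were at 0 in 5C while at 50 or more in all 6 MEF libraries, and Dnmt1 was 100 there. The part of these in the MMP values was not tested.

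**Figure D5:**
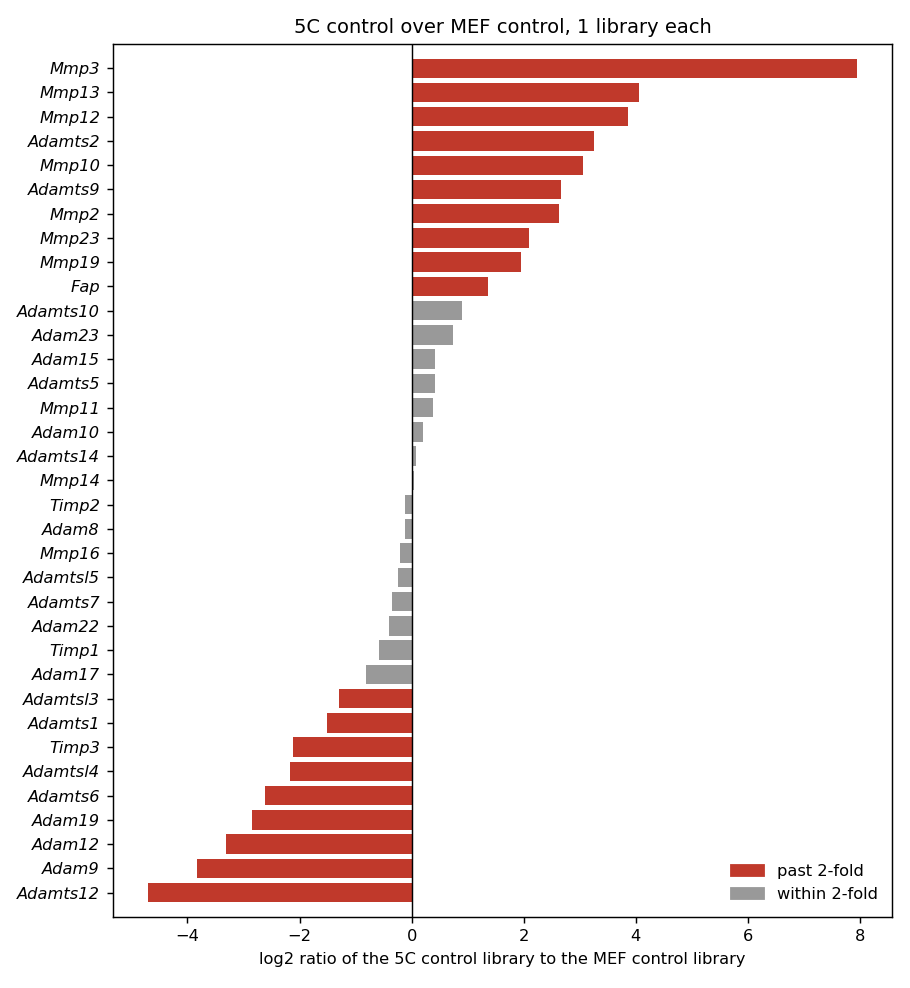
Log2 ratio of the 5C control library to the MEF control library for 35 genes, 1 library each; red bars are past 2-fold and grey bars within it. Mmp3 stands at 7.95, followed by Mmp13 at 4.07 and Mmp12 at 3.87; Adamts12 is lowest at -4.70.

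A group of MMP genes that were higher in 5C, Mmp13, Mmp12, Mmp3 and Mmp10, lie in 1 cluster on chromosome 9 and are known as genes that AP-1 transcription factors can switch on, so their promoters were read for the AP-1 word TGAGTCA or its reverse complement TGACTCA. Mmp3, Mmp10 and Mmp13 hold it 46, 63 and 35 bases before the start, and Mmp12 does not hold these letters in the window. The word is in capitals.
Mmp3 (chr9:7445572-7445821, + strand): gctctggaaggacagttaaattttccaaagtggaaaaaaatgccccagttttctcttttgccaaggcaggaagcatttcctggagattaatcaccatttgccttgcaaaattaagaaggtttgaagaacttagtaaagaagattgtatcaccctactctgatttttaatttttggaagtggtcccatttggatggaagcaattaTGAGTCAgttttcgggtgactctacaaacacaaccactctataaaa
Mmp10 (chr9:7502092-7502341, + strand): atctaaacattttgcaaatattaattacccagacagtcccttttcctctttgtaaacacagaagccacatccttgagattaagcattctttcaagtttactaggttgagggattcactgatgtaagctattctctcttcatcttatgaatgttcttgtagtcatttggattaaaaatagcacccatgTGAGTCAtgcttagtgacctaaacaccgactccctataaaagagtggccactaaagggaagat
Mmp13 (chr9:7272264-7272513, + strand): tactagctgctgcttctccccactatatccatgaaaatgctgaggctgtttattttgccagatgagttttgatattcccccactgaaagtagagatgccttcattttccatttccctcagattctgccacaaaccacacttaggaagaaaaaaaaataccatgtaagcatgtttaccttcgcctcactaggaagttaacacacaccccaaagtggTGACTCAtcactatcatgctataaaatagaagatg
Mmp12 (chr9:7344147-7344396, + strand): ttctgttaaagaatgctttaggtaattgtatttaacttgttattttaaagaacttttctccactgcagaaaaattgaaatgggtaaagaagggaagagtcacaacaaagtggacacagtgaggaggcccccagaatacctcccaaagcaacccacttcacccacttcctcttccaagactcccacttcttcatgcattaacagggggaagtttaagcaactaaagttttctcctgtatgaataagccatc
Of the 30 matched genes 4 hold the word (13.3%), the other being Adam19 at 131 bases, against 4.46% of all promoters. As for CG, all promoters were not limited to listed genes, so these shares come from unlike sets. The count is a description of letters and says nothing of binding. Adam19 was lower in 5C (390 against 2856), the opposite direction to the MMP genes that hold the word.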

How the data were processed

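RNA sequencing of 21 mouse libraries gave 1 value per gene and library, in 3 tables of 7 libraries. The authors deposited values of the unit score: whole numbers that they had normalised within each table, judged from the values, since the libraries of a table share nearly the same sorted list. Bowtie, RSEM and the build mm10 appear in the submitters' processing notes without version; what each did, how values were normalised and how genes were filtered is not given in the sources used here. Libraries were made with an Illumina TruSeq kit, per the labels' protocols. Each listed gene had at least 32 in at least 2 libraries. The highest value was shared by 9 or 10 genes per library; no gene of the rule reached it, while Thbs1 and the markers Vim, Col1a2 and Col3a1 did in some libraries. Depth is unknown, so no counting error was computed.

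Groups were read from the sample titles, and the sample columns not used numbered 0. Values were transformed as log2(value + 5), so fold changes of low genes are understated, and a gene entered a fit when its mean there was 10 or more. Construct effects were tested with limma 3.58.1 in R 4.3.3 (empirical Bayes with intensity trend, Benjamini-Hochberg adjustment over all genes) in an additive model with medium and 4 construct terms (8 residual degrees of freedom), a model with 4 medium interactions (4) and 1 fit per SKOM table (2). Construct effects were estimated within tables. Across tables, ratios without a test were used, because each table was normalised separately. For the MEF and 5C ratios a mean of 50 or more was asked. The Tet1CD, shDnmt1 and shp53 estimates share libraries. The code was tested on simulated data.

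The genes, the companion and marker lists and the tests were chosen with earlier results of these data known. Every gene of the rule may be named. Others are the targeted genes and at most 4 per list with the largest change past the threshold. The macrophage markers, Lum, Pdgfra, Palm2Akap2, Smarca1 and the antisense partners were named after their values were seen. The values of 1 companion gene are not reported here. All 6 companion and 6 marker lists were used for summed values. Promoters were read from RefSeq.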

Additional observations from a re-analysis of the deposited data

Results flagged for a closer look

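The effect of Tet1CD differed between SKOM cells with and without vitamin C for 8 genes, each by an interaction term in limma. The log2 differences, Vc+ minus Vc-, were 1.10 for Adam19, 1.06 for Timp3, 0.97 for Adam23, 0.82 for Adam12, 0.74 for Adam9, 0.69 for Adamtsl5, 0.66 for Timp1 and 0.43 for Adamtsl4. Each gene was higher with Tet1CD on average in each medium, and Timp3 was nearly level in Vc- cells. The medium cannot be told apart from the separate normalisation of its table. The macrophage markers summed to 2474 to 3309 with Tet1CD against 338 to 509 without in Vc+ cells. In Vc- cells they summed to 633 to 735 against 302 to 400. Ptprc, Lyz2 and Cd53 in Vc+ cells, and Ptprc in Vc- cells, were listed through the libraries with Tet1CD. The sums therefore depend in part on the listing, and the part of the markers was not tested.

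The effect of shp53 on Fap also differed between media, by -4.71 on the log2 scale. This size rests on a listed 0 in the Vc+ shp53 library and on the pseudocount, so it is no measure of a fold.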

How the results depend on the processing

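No called value changed sign under any alternative run. Of the values of called genes, 466 of 501 kept their call for Tet1CD in SKOM cells and 153 of 168 for its interaction with medium. The number of genes called for Tet1CD in SKOM cells was 22 and became 10 without the 4 libraries labelled Dnmt1, with fewer libraries fitted. The 22 genes and the 501 values include Adamts2, Adamtsl3 and Mmp12, and the 10 include Adamts2. These were listed through the libraries with Tet1CD in 1 or both tables. Counts over all genes of the rule in Vc+ cells, and without the intensity trend in Vc- cells, likewise include genes whose listing depended on 1 group. Among genes listed through either group, 19 passed for Tet1CD in SKOM cells, 9 for its interaction, 11 in Vc- and 20 in Vc+ cells. Without the intensity trend the count for Tet1CD in Vc- cells became 3 and that for shp53 in Vc- cells 0. With a medium by Tet1CD term added, 7 genes passed for shp53 in SKOM cells. A pseudocount of 20 left 0 for shp53 in Vc+ cells and 1 for shDnmt1 in MEFs. A median of at least 1.5-fold gave 1 gene for vitamin C, and a mean of at least 10 gave 3 for Tet1CD in MEFs. The cause of these was not tested. Leaving out 1 library at a time gave 19 to 23 genes for Tet1CD in SKOM cells (3701 to 5315 of all genes), 5 to 11 for its interaction with medium (761 to 2315), 0 to 13 in Vc- cells (5 to 2353) and 13 to 26 in Vc+ cells (2231 to 5450). It gave 0 to 1 for shp53 in SKOM cells and for its interaction, 0 to 3 in Vc- cells and 0 in every such fit in Vc+ cells. The ratios of SKOM over MEF libraries gave 14 to 15 genes in Vc+ and 13 to 14 in Vc- cells. Median centring, the other pseudocounts and filters left the other counts within 1.5 times. No paired analysis was possible because the labels carry no replicate numbers; in the ratios, libraries were matched by their constructs. Unknown depth keeps low values, such as those of Adamts19 and Adam28, without a counting error.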
